A study of Caenorhabditis elegans with 2 samples.

Results

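The regions described here are the autosomal intergenic regions of a chromatin immunoprecipitation sequencing (ChIP-seq) experiment on NHR-76 in Caenorhabditis elegans. A region belonged to them when its summit lay on one of the 5 autosomes, in no annotated gene, in no promoter window and not within 200 bp of a tRNA, snRNA, snoRNA or rRNA gene. A promoter window covered the 1000 bp before and the 200 bp after each protein-coding 5′ end, and piRNA genes were not counted as genes. The rule used position only and no measured signal. It kept 2314 of the 10685 autosomal regions, and of 13052 regions in all, in the list that pooled both replicates.

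The experiment had 1 group, with biological replicates 1 and 2, and each replicate was 1 library. Both came from strain OP203, of genotype unc-119(ed3) III; wgIs203, in which NHR-76 carries an eGFP tag, taken as whole animals of both sexes at the larval stage L4. The labels name nhr-76 as the antibody target, give the age as unknown and give fragments of 150 to 350 bp. The tagged protein came from a transgene insertion in a strain that also carries an unc-119 allele, and animals without the tag were not analysed here. Whole animals mix all tissues, so a region bound in few cells and a region bound weakly in many cells cannot be told apart. Both replicates name the same donor strain, and nothing in the labels says how separate the cultures were.

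Nuclear hormone receptors are zinc finger transcription factors, many of them controlled by lipids, and C. elegans has an unusually large family of them. NHR-76 is known for its part in fat loss, in which a serotonin and neuropeptide signal from neurons reaches the intestine and raises the lipase gene atgl-1. The intestine of the worm is kept in its fate by GATA factors such as ELT-2, which bind the element TGATAA. Most known regulatory sequence of C. elegans lies close to genes, and the sequence between promoters also holds distal enhancers, annotated and unannotated transcription units and many repeats.

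The sequences under the strongest called peaks between promoters show which short elements the windows hold and which they lack. Called peaks are those of the deposited list, named optimal, that had passed a threshold on the irreproducible discovery rate. That rate measures how well rankings of regions agree, and which rankings were compared for this list was not established here. Each line gives the 200 bases of the plus strand at the summit from the RefSeq copy of WBcel235 (ce11), in lower case. The following elements are in capitals on either strand: the GATA element TGATAA, the repeat GAGAGA, the E-box CACGTG and a nuclear receptor element, AAGGTCA. On the other strand the GATA element reads TTATCA and the repeat reads TCTCTC. The first 6 are the strongest called intergenic peaks in order of the authors' signal value, and the seventh, ninth in that order, is shown because it holds 3 of the 4 elements.
nhr-76 upstream peak, chrIV:626247-626446: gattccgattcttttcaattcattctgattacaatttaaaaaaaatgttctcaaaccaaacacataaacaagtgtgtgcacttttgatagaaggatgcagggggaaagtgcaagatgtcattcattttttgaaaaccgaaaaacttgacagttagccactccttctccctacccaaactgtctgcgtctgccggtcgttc
R11F4.1 upstream peak, chrII:4089315-4089514: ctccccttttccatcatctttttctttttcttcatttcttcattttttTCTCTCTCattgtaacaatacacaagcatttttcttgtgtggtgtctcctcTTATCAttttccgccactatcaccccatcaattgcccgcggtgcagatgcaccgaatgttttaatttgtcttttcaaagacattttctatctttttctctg
irld-18 upstream peak, chrIV:14594266-14594465: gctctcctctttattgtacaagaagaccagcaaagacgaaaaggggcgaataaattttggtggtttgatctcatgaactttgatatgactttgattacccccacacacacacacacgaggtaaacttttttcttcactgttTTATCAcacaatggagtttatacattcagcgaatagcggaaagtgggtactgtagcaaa
ncl-1 upstream peak, chrIII:7718443-7718642: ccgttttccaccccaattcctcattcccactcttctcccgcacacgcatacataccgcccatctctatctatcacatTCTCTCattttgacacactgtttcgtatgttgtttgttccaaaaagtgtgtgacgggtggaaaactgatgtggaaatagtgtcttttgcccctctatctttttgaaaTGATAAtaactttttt
F28A12.6 and F28A12.7 peak, chrV:8655164-8655363: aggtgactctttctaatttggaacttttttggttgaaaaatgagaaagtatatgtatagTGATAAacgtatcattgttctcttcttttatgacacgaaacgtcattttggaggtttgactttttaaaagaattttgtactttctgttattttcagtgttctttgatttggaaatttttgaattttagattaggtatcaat
hif-1 upstream peak, chrV:20778345-20778544: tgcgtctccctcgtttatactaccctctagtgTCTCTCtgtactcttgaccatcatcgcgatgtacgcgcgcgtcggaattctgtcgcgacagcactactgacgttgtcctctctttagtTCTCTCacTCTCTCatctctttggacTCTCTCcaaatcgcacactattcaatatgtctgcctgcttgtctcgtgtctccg
C34B4.15 and C34B4.11 peak, chrV:13081182-13081381: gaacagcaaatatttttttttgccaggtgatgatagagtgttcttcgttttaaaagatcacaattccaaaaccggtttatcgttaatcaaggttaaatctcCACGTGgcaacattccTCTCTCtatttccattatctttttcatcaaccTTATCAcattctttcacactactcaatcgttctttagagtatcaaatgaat

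The window upstream of nhr-76 held none of the 4 marked elements, and the next 4 windows each held 1 match to TGATAA. Other receptor elements counted below were not marked, and the window upstream of nhr-76 held AGTGCA, an element of the receptor DAF-12. The window upstream of hif-1 held 4 matches to GAGAGA and none to TGATAA. A match is a description of the letters in the window and does not show that a factor binds there.

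Called peaks were few between promoters, as they were among autosomal regions in general. A called summit lay within 200 bp of 41 of the 2314 intergenic regions (1.77%, exact binomial 95% interval 1.27 to 2.40), against 2.19% of all 10685 autosomal regions and 193 of the other 8371 (2.31%, 1.99 to 2.65). These 41 regions matched 41 different called peaks, all themselves intergenic by the same rule. Over all autosomes, 234 regions matched 226 of the 228 called peaks, since neighbouring regions can meet the same peak. A deposited q-value under 0.05 was given to 192 intergenic regions (8.30%), against 8.36% of all autosomal regions. The share was therefore near the background by either rule. Regions come from the same libraries and are not replicates, so the intervals cover counting error only and no test between groups of samples was possible.

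The intergenic share was also close to the share of sequence that the rule leaves. The rule leaves 16.5 Mb, or 20.004% of the autosomal sequence, and it kept 21.7% of pooled autosomal regions. In the list of replicate 1 it kept 4668 of 21914 (21.3%), and in that of replicate 2 it kept 4417 of 20393 (21.7%). Of the 228 autosomal called peaks, 41 were intergenic (17.98%, 13.2 to 23.6). Among the 70 autosomal regions with rank 1 to 100 by signal value among nuclear regions of the pooled list, 9 were intergenic (12.9%, 6.05 to 23.0). The corresponding shares were 15.9% in replicate 1 and 19.2% in replicate 2, with intervals that include the share of the weakest regions. From rank 320 on, the 3 lists stayed between 20.1% and 23.6%.

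**Figure D1:**
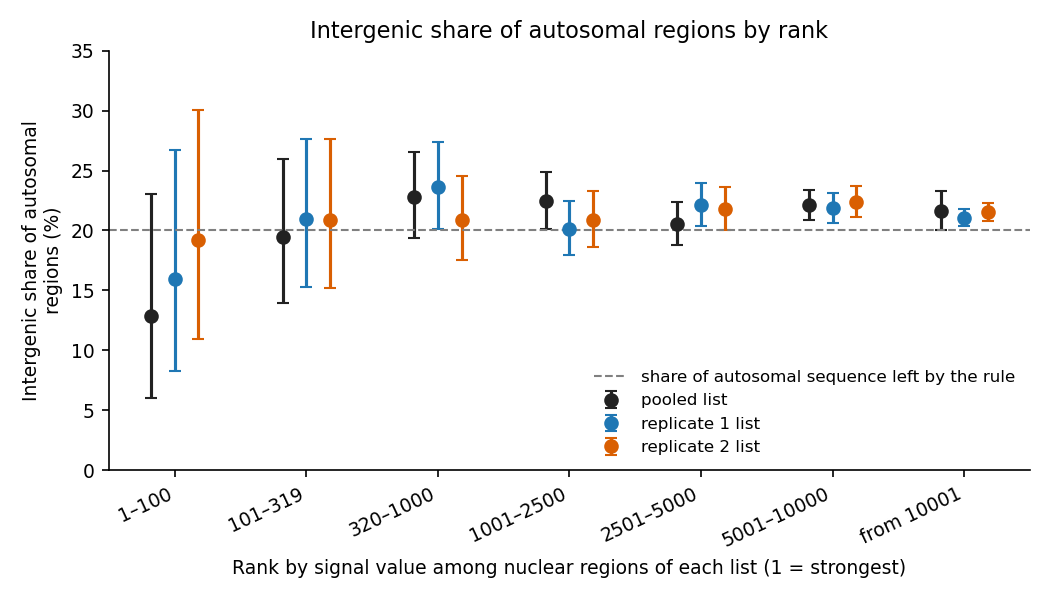
Intergenic share of autosomal regions (y axis, percent) by rank of signal value among nuclear regions (x axis) in the pooled list and in the list of each replicate. Points are shares, bars are exact binomial 95% intervals, and the dashed line marks the 20.004% of autosomal sequence that the rule leaves; the strongest bin reads 12.9%, 15.9% and 19.2% in the 3 lists.

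The replicates agreed on the intergenic regions about as often as on other regions. A summit within 200 bp was present in both replicate lists for 1142 of the 2314 (49.4%), against 48.7% of all autosomal regions. The list of replicate 1 held 78.7% of the 2314 and that of replicate 2 held 68.6%, shared regions included. Exactly 1 of the lists held 1124, and neither held 48. Among the 1142 shared regions, the rank in replicate 1 and the rank in replicate 2 had a Spearman's rho of 0.349, given as a description over regions of the same libraries, and for the 4060 shared regions elsewhere on the autosomes it was 0.336. In both replicates 67 intergenic regions were among the 1000 strongest (2.90%), against 3.19% of all autosomal regions. Ranks within a replicate counted all regions of its list, with 27 mitochondrial ones in replicate 1 and 31 in replicate 2.

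The 41 called regions ranked from 26 to 1041 in replicate 1, with a median of 220. In replicate 2 they ranked from 24 to 11494, with a median of 221. Calling used ranks from the same libraries, so this is a description of the called list. Of the 41, 32 were among the 1000 strongest of both replicates, 6 ranked beyond 1000 in replicate 2 and 3 ranked beyond 1000 in replicate 1, the latter between 1008 and 1041. The widest gap was at the called peak 3423 bp upstream of lpin-1, the lipin gene of triglyceride synthesis, which ranked 571 in replicate 1 and 11494 in replicate 2; it was named after its values were seen. Conversely, 35 intergenic regions were among the 1000 strongest of both replicates and were not called.

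**Figure D2:**
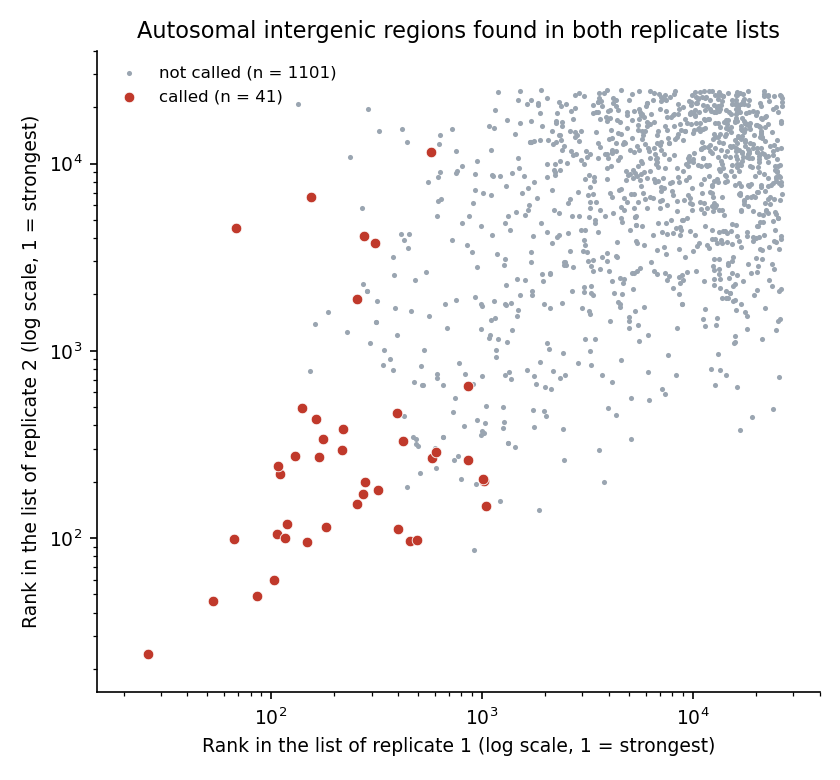
Rank of each intergenic region in replicate 1 (x axis, log scale) and replicate 2 (y axis, log scale) for the 1142 regions in both lists, with the 41 called regions in red and the 1101 others in grey. Of the called regions, 32 lie within rank 1000 in both replicates, 6 lie beyond it in replicate 2 and 3 just beyond it in replicate 1.

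The strongest peak between promoters lay next to the gene of the tagged protein itself. It covered chrIV:626162-626531, with its summit 1190 bp upstream of the 5′ end of nhr-76 (chrIV:627537-633963, plus strand) and 2077 bp beyond the 3′ end of C05G6.5. Its signal value was 139 in replicate 1, 110 in replicate 2 and 240 in the called list. Its rank was 26 in replicate 1 and 24 in replicate 2, mitochondrial regions included. Among nuclear regions alone it ranked 2 in the called list and 3 in the pooled list. On ranks that count mitochondrial regions, no other called intergenic peak was among the 50 strongest of both replicates. The second called intergenic peak ranked 53 and 46 in replicates 1 and 2, and 29 among nuclear regions of the called list. A signal value is the authors' own number per peak, and its scale differs between lists, so only ranks within a list are compared. The 50 kb on each side of the start of nhr-76 held 28 pooled regions, 3 of them called, against 2.19% of all autosomal regions. Of the 28, 13 were intergenic, and 1 of these was called. The rule leaves 27989 bp there, so the 13 came to 464 intergenic regions per Mb of that sequence, against 140.1 over all autosomes. The tagged NHR-76 of this strain came from a transgene insertion, and the part of that insertion in these values was not tested.

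Other genes of the fat-loss pathway had no called intergenic peak nearest to them. Of the 8 listed genes, flp-7, which encodes the neuropeptide of the pathway, and tbh-1, which makes octopamine, are X-linked and outside the rule. The nearest protein-coding 5′ end was that of nhr-76 for 8 intergenic regions, 1 of them called. It was that of npr-22, the receptor of the neuropeptide, for 1 region, and of the octopamine receptor gene ser-6 for 1 region, and neither was called. No intergenic region had its nearest 5′ end at atgl-1, at the serotonin-gated channel gene mod-1 or at tph-1, which makes serotonin. For atgl-1 the closest intergenic summit lay 16467 bp from the 5′ end and ranked 4870 in the pooled list.

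The next called peaks by signal value lay between 1186 and 13327 bp from the nearest protein-coding 5′ end. The second covered chrII:4089230-4089599, between R11F4.2 and R11F4.1 and 2515 bp upstream of R11F4.1, with a signal value of 135 and ranks of 53 and 46 in replicates 1 and 2. The third covered chrIV:14594181-14594550, 13327 bp upstream of irld-18, a gene of the receptor L domain family. It had a signal value of 106, ranked 86 and 49, and its summit lay in sequence masked as a repeat. The fourth lay at chrIII:7718358-7718727, 1186 bp upstream of ncl-1, which limits the size of the nucleolus, with a signal value of 106 and ranks of 67 and 99. The fifth, at chrV:8655079-8655448, lay between the 3′ ends of F28A12.6 and F28A12.7, 10801 bp upstream of the nearest protein-coding 5′ end, that of ZC190.4, with a signal value of 102 and ranks of 103 and 60.

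These 4 peaks ranked high in each replicate, and the sixth did not. It covered chrV:20778260-20778629, 1962 bp upstream of hif-1, the transcription factor of the hypoxia response, with a signal value of 94.1. It ranked 68 in replicate 1 and 4552 in replicate 2, where its signal value was 11.6. Of the 20 strongest called intergenic peaks, it alone was outside the 1000 strongest of a replicate, and 17 of the 20 were among the 319 strongest of both, 319 being the number of called peaks.

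The remaining 14 of these 20 peaks had signal values from 71.0 to 93.4. Peak 7 lay 2614 bp upstream of F58D12.3 and ranked 119 in both replicates. Peak 8 lay between 2 genes named only by identifier, WBGene00015441 and WBGene00020619. Peak 9 lay between C34B4.15 and C34B4.11, 1773 bp upstream of C34B4.2. Peak 10 lay 2547 bp upstream of nhr-88, another nuclear hormone receptor gene, and ranked 108 and 243. Peak 11 lay 1902 bp upstream of sup-26, which encodes an RNA-binding protein, and ranked 117 and 100. Both of these windows were rich in G and C, at 59.5% and 56.5%.

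Peak 12 lay 2054 bp upstream of ogt-1, the O-GlcNAc transferase gene, and 175 bp beyond the 3′ end of nuo-4, which encodes a subunit of respiratory complex I. It ranked 149 in replicate 1 and 95 in replicate 2. Peak 13 lay 132 bp beyond the 3′ end of fat-1, the omega-3 fatty acid desaturase gene, and ranked 130 and 276. The 5′ end of fat-1, 3299 bp away, was still the nearest, so this summit lay downstream of it. The others of the 20 lay nearest the 5′ ends of C17G10.7, Y17G7B.17, mfb-1, C10C5.4, F40E3.3, Y38E10A.14 and Y48G9A.9. In all, 16 of the 20 summits lay upstream of the nearest protein-coding 5′ end and 4 downstream of it.

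The 5 strongest regions that were not called had pooled signal values from 58.2 to 67.8, within the range of called regions, 38.1 to 234. They lay 10407 bp from gln-3 and 3072 bp from the other flanking gene, between nlp-40 and rcor-1, between catp-4 and tps-2, between C01G6.4 and gldi-3, and between sesn-1 and txt-7. The first ranked 919 in replicate 1 and 86 in replicate 2, and the second 153 and 784. The third ranked 499 and 309, the fourth 440 and 187, and the fifth 161 and 1395.

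The limit of the promoter window ran close to several of the strongest peaks. Just outside it lay the called peaks upstream of rhy-1, at 1059 bp with a signal value of 69.4, of ncl-1, at 1186 bp, and of nhr-76, at 1190 bp. Just inside it lay peaks at 920 bp upstream of C32D5.8, next to the autophagy gene lgg-1, with a signal value of 63.6, at 914 bp upstream of cbp-1, the CBP/p300 acetyltransferase gene, with 108, and at 899 bp upstream of chd-7, a chromatin remodeller gene, with 66.5. With a promoter window of 500 bp the rule kept 2920 regions, 59 of them called (2.02%). With 2000 bp it kept 1614, of which 27 were called (1.67%). Both shares were near the 2.19% of all autosomal regions.

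Called and uncalled intergenic regions lay at about the same median distance from protein-coding 5′ ends. The median distance to the nearest protein-coding 5′ end was 2515 bp for the 41 called regions (quartiles 1635 and 3410, range 1059 to 13327). For the 2273 uncalled regions it was 2485 bp (quartiles 1549 and 4178, range 307 to 37725). The summit was upstream of that 5′ end in 33 of the 41 called regions (80.5%) and in 1609 uncalled ones (70.8%). Beyond 5 kb lay 439 of all 2314 regions and 6 of the called ones. The 41 regions lay between genes in tandem in 27 cases, between divergent genes in 10 and between convergent genes in 4. Among the uncalled regions the shares were 54.6%, 26.001% and 19.4%. The gap between the flanking genes had a median of 4394 bp around called regions and 4780 bp around uncalled ones. The nearest edge of any gene lay at a median of 1404 bp from called summits and 1157 bp from uncalled ones.

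**Figure D3:**
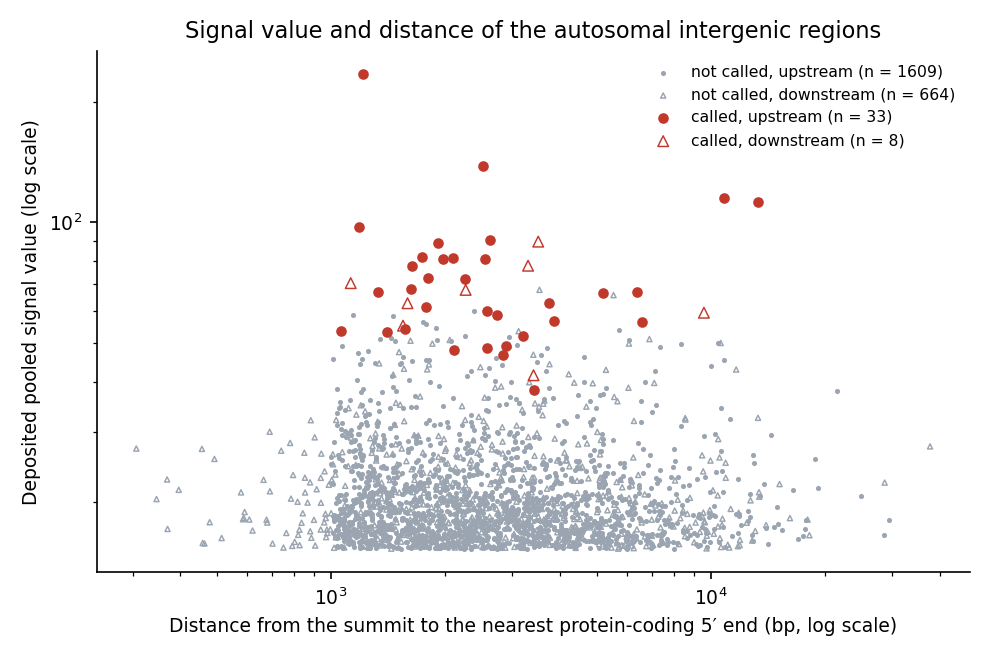
Pooled signal value (y axis, log scale) against the distance to the nearest protein-coding 5′ end (x axis, bp, log scale) for all 2314 autosomal intergenic regions, with the 41 called ones in red, filled circles for summits upstream of that 5′ end and open triangles for summits downstream. Called regions spread from 1059 to 13327 bp and uncalled ones from 307 to 37725 bp, and the highest point is the region upstream of nhr-76.

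Most gaps held a single region. The 2314 regions fell into 1632 gaps between genes, of which 1226 held 1 region, 253 held 2 and 153 held 3 or more. The fullest gap, 30252 bp between irld-18 and F13G11.145 on chromosome IV, held 10 regions, 1 of them called. Another intergenic summit lay within 1 kb of 483 regions (20.9%).

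Few flanking genes of called regions belonged to the counted families. Nuclear hormone receptor genes flanked 3 of the 41 called regions, namely nhr-21, nhr-76 and nhr-88, and 87 of all 2314 (3.76%). A chemoreceptor gene, srj-15, flanked 1 of the 41, against 112 of all 2314 (4.84%). Cytosolic ribosomal protein genes, collagen genes, F-box genes, C-type lectin genes, histone genes and the detoxification families cyp and ugt flanked none of the 41. Each of these families flanked under 1% of all 2314 regions, from 0.0432% for histone genes to 0.951% for C-type lectin genes, so none among 41 is near the background. Ribosomal protein genes flanked 14 of the 193 other called regions (7.25%), none of the 41 called intergenic ones and 13 of all 2314 intergenic ones. Their share over all other autosomal regions was not counted.

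The number of intergenic regions followed the sequence the rule leaves on each autosome only roughly. Chromosome II held 370 regions in 3.08 Mb of that sequence, and III held 375 in 2.48 Mb. Per Mb of that sequence there were 147 on chromosome I, 120.2 on II, 151 on III, 152 on IV and 131 on V. Replicate 1 gave 284, 268, 299.8, 298 and 265 in the same order, and replicate 2 gave 269.8, 242, 284, 293 and 248. Chromosome II was lowest or next to lowest in each list. The called regions numbered 4 of 368 on I (1.09%), 10 of 370 on II (2.70%), 6 of 375 on III (1.60%), 10 of 674 on IV (1.48%) and 11 of 527 on V (2.09%). Over all regions of each autosome the called shares were 1.99%, 2.71%, 2.46%, 1.81% and 2.12% in the same order.

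Many regions of chromosome IV lay in the clusters of piRNA genes, which encode small RNAs of the germline and which the rule leaves out of the genes. The annotation places 14714 of its 15363 piRNA genes there. Within 200 bp of a piRNA gene lay 253 of the 674 intergenic regions of chromosome IV (37.5%), against 31.5% of the sequence the rule leaves there. In replicate 1 the share was 39.2%, and in replicate 2 it was 40.2%. The 262 such regions over all autosomes had a median pooled rank of 8286 among nuclear regions, against 6425 for the others. Of the 262, 1 was called, on chromosome V, against 1.77% of all intergenic and 2.19% of all autosomal regions.

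Called intergenic regions were richer in G and C and less often in repeats than uncalled ones, as were called regions elsewhere. The 200 bp windows of the 41 had a mean GC content of 40.4% ± 6.47 (SD over regions), and those of the 2273 uncalled ones 32.3% ± 6.84. Tiles of the sequence the rule leaves had a mean of 33.8%, and the 193 called regions elsewhere on the autosomes 41.9%. Summits lay in repeat-masked sequence in 6 of the 41 (14.6%, 5.57 to 29.2) and in 1075 of the 2273 (47.3%), against 43.7% of tiles and 17.1% of called regions elsewhere. Of the intergenic regions in the replicates' own lists that were among their 319 strongest, 7 of 45 were masked in replicate 1 (15.6%) and 9 of 44 in replicate 2 (20.5%). Of the pooled intergenic regions within 200 bp of one of those 319 summits, the masked ones were 11 of 44 for replicate 1 and 14 of 47 for replicate 2 (29.8%). The 31 bases at the summit occurred once in the nuclear genome for all 41 called regions and for 98.7% of all 2314.

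The central part of each autosome, taken as the middle of 3 equal parts, held 18 of the 41 called summits (43.9%, 28.5 to 60.3). It held 33.7% of uncalled intergenic summits, 31.9% of the sequence the rule leaves and 54.4% of called summits elsewhere. The interval of the 41 includes the share of the uncalled regions.

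The GATA element TGATAA stood in nearly as many called intergenic windows as not. It occurred on either strand in 20 of the 41 windows (48.8%, 32.9 to 64.9) and in 490 of the 2273 uncalled windows (21.6%, 19.9 to 23.3). Among the 193 called regions elsewhere on the autosomes it occurred in 35 (18.1%, 13.0 to 24.3), which is close to the 20.3% of all autosomal windows of this length and to the 17.1% of tiles. Called regions in promoters had it in 19.6% and those in introns or exons in 15.4%. The 8 elements searched were listed with earlier results of these data known, and this contrast was picked out after its values were seen, so it has no test here.

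Each replicate alone showed the same order. Of the intergenic regions among the 319 strongest of replicate 1, 17 of 45 held TGATAA (37.8%, 23.8 to 53.5), against 14.6% of the 185 other autosomal ones. In replicate 2 it was 18 of 44 (40.9%, 26.3 to 56.8), against 18.9% of 180. Of the pooled intergenic regions in both lists, 18 were among the 319 strongest of both replicates. Of the 41 called regions, 27 were among the 319 strongest of replicate 1 and 28 among those of replicate 2. The sets therefore share regions with each other and with the called set, and give no separate support. By rank among nuclear regions of the pooled list, the share of intergenic windows with the element was 66.7% of 9 regions at ranks 1 to 100. The share was 42.9% of 35 at 101 to 319, 26.2% of 126 at 320 to 1000, 29.9% of 274 at 1001 to 2500 and 19.3% of 420 at 2501 to 5000. It did not fall at every step. For other autosomal windows it was 19.7%, 17.2%, 22.3%, 23.4% and 20.8% at the same ranks.

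Part of the matches lay close to the summits of called intergenic regions. Of 45 matches in the 400 bp around the 41 summits, 17 lay within 50 bp of the summit and 28 farther away. Within 50 bp of the summit, 14 of the 41 held TGATAA (34.1%), against 11.5% of the uncalled intergenic regions and 9.33% of the called regions elsewhere. Among windows whose summit was not masked, 17 of 35 called intergenic ones held it (48.6%), against 24.0% of uncalled ones. Windows with the element had a mean GC content of 38.4% among the 41 and windows without it had 42.3%.

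**Figure D4:**
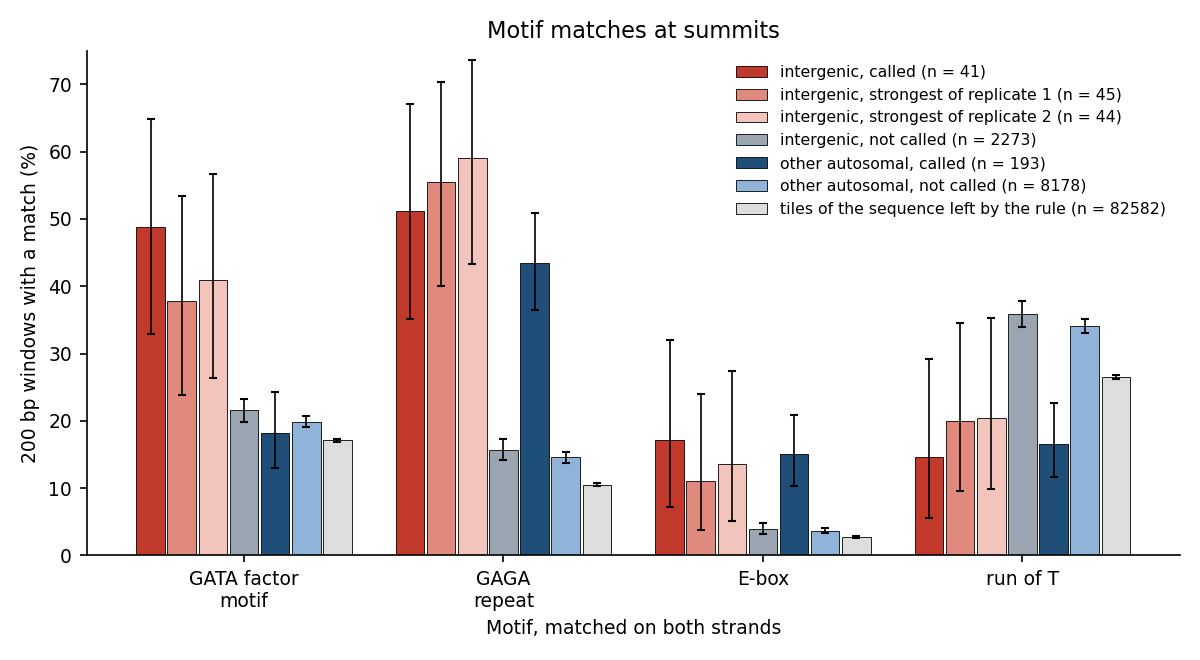
Share of 200 bp windows with a match on either strand (y axis, percent) for the GATA factor motif (TGATAA), the GAGA repeat (GAGAGA), the E-box (CACGTG) and a run of 8 T (x axis), by set of regions, with exact binomial 95% intervals as bars. The 3 red sets are called intergenic regions and the intergenic regions among the 319 strongest of each replicate, and they share regions. They read 48.8%, 37.8% and 40.9% for the GATA factor motif, above called regions elsewhere at 18.1%.

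A GAGA repeat occurred in many called regions, intergenic or not. GAGAGA was found in 21 of the 41 windows (51.2%, 35.1 to 67.1), in 15.7% of uncalled intergenic windows and in 43.5% of called windows elsewhere (36.4 to 50.8), against 15.5% of all autosomal windows and 10.5% of tiles. Called windows in promoters had it in 38.4% and those in introns or exons in 59.6%. Among the 319 strongest of replicate 1, 55.6% of intergenic and 45.9% of other autosomal windows held it. In replicate 2 the shares were 59.1% (43.2 to 73.7) and 39.4% (32.3 to 47.0). All 5 of the strongest uncalled intergenic regions held it too, and 2 of them held TGATAA. Of the 41 windows, 7 held both TGATAA and GAGAGA, 13 held TGATAA only, 14 held GAGAGA only and 7 held neither.

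The E-box, a binding element of basic helix-loop-helix factors, occurred in 7 of the 41 windows (17.1%, 7.15 to 32.1). It occurred in 3.92% of uncalled intergenic windows, 15.03% of called windows elsewhere and 3.98% of all autosomal windows. The runs TTTTTTTT went the other way, with 6 of the 41 (14.6%), 35.9% of uncalled windows and 34.1% of all autosomal windows. Called windows elsewhere were low as well, at 16.6%.

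Elements bound by single nuclear receptor subunits were counted the same way. AAGGTCA occurred in 3 of the 41 windows (7.32%, 1.54 to 19.9), in 1.67% of uncalled intergenic windows and in 1.43% of all autosomal windows. AGGTCA, which AAGGTCA contains, occurred in 3 as well, against 5.32% and 4.34%. AAGTCA occurred in 6 (14.6%, 5.57 to 29.2), against 8.71% and 8.29%, and in 15.6% and 18.2% of the intergenic regions among the 319 strongest of replicates 1 and 2. AGTGCA, an element of the receptor DAF-12, occurred in 2 (4.88%), the window upstream of nhr-76 among them, against 6.995% and 6.22%. The interval of each of these 4 elements over the 41 windows includes the share of uncalled windows, and the 3 windows with AGGTCA were those with AAGGTCA.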

How the data were processed

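ChIP-seq regions of 2 replicates in 1 group were taken from the 4 lists deposited on ce11 (the lists on ce10 were not used). Per the labels and file names, they are the authors' lists of peaks and background given to the irreproducible discovery rate for each replicate and for both pooled, and the thresholded list of 319 peaks. The deposited signal value is a score of unknown scale, the deposited −log10 q-value was used only as a threshold of 0.05, and the deposited offset gives the summit. Caller, aligner, control and depth were not stated in the sources at hand, so no floor on depth can be set.

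Genes came from Ensembl release 115 and sequence from the NCBI copy of WBcel235. Summits were placed by the rule and matched between lists within 200 bp. Ranks of single regions and sets of the strongest regions counted mitochondrial regions too. The bins of ranks and the piRNA medians counted nuclear regions only. Shares have exact Clopper-Pearson 95% intervals, for counting error only. A single group allows no comparison between conditions, so no test was run. Members, motifs and lists were chosen with earlier results of these data known. Regions named are the 20 strongest called intergenic peaks, those nearest a fat-loss gene, the 5 strongest uncalled regions and 3 called peaks on each side of the promoter limit. The lpin-1 peak was added after its values were seen. Python 3.11.15, pandas 2.3.3 and scipy 1.17.1 were used, and the placing, matching and motif steps were tested on simulated data. Other promoter windows, match distances, window lengths and single replicates were tried.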

Additional observations from a re-analysis of the deposited data

How the results depend on the processing

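The direction of called against uncalled intergenic regions held under every alternative run for the masked share, GC content, the element TGATAA, the repeat GAGAGA, the E-box CACGTG and the central share. It did not hold for the divergent share, the median distance, AGGTCA or AGTGCA, and the causes were not tested. The intergenic share of autosomal regions was 27.3% and 15.1% with promoter windows of 500 and 2000 bp, 22.9% with protein-coding genes only and 18.1% with whole regions outside genes; single replicates gave 21.3% to 21.7%. The called share was 2.84% without masked summits, which removes more uncalled than called regions, and 1.90% to 2.03% with the strongest regions of 1 replicate. The share in both replicate lists was 34.8% within 100 bp, 59.5% within 500 bp, 57.8% by overlap, 19.4% and 10.8% among the 10000 and 5000 strongest, and 46.8% with a 2000 bp window.

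For called and uncalled regions in turn, most of the window was masked in 4.88% and 39.7%. Of pooled intergenic regions that match the 319 strongest of 1 replicate, in place of called ones, 11 of 44 to 14 of 47 (29.8%) were masked, and 15.6% and 20.5% in those replicates' own lists. A wider centre, 50% of each autosome, held 63.4% and 51.7%. Median distances were 1736 and 1960 bp with a 500 bp window, and 2878 and 3370 bp with 2000 bp. Between protein-coding genes only, 2.44% and 14.1% were convergent, and 39.02% and 30.4% were divergent. Mean GC in 400 bp windows was 38.5% and 32.3%, and for uncalled regions it was 31.98% in 100 bp windows and 34.2% without masked summits. In 100 bp windows TGATAA fell to 31.7% and 11.04%, GAGAGA to 31.7% and 9.46%, and CACGTG among uncalled regions to 2.02%, since shorter windows hold fewer matches. Without masked summits the uncalled shares were 24.0%, 19.4% and 5.34%.

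The 41 called regions give exact intervals as wide as 32.9% to 64.9%, and the deposited lists carry no read depth. No paired analysis was possible because there was 1 group.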
